A study of Danio rerio with 2 samples.

Results

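Homeobox genes outside the hox clusters and the zinc finger genes of the zic family divide the early embryo into head, brain and sensory territories. The members described here are 191 regions of open chromatin, of 35854 in all, assigned to 99 genes of 14589. They were chosen by gene symbol, namely the families of pax, otx, irx, lhx, dlx, emx, gbx, meis, pbx, zic, vsx, rx, msx, barhl, pitx and nkx genes with a number, the sine oculis homologues (six4a and its relatives) and the 4 engrailed genes, leaving out pax2a, pax8, lhx1a and nkx2.5. The rule uses symbols and no measured value, though it was set with earlier results of these data known. They were found by ATAC-seq, which marks open chromatin by where a transposase can cut and tag the DNA, in zebrafish embryos at the 1-somite stage.

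There were 2 libraries, each from a single embryo freed of chorion and yolk. One embryo was wild type. The other was homozygous for the npas4l allele bns297 and is called the mutant here; the label on growth conditions names the AB strain for both. Npas4l is the bHLH-PAS transcription factor missing in cloche mutants and is needed for blood and endothelial fates. No region of npas4l was analysed here, so genotype rests on the labels. Depth, estimated from the deposited values, was 7853828 reads in regions for the wild type library and 7066666 for the mutant library. With 1 library per genotype, a difference between genotypes cannot be told apart from a difference between these 2 embryos, and no p-value is given. Values are normalised read counts per region, as scaled by the authors. Log2 ratios are mutant over wild type with 1 added to each value, followed by a 95% interval that covers counting error only. In whole embryos, fewer cells with a region open and a less open region in each cell cannot be told apart.

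Homeodomain proteins bind short AT-rich sites, and which of them a neural cell carries marks its place along the body axis. Otx, Six3, Rx and Emx factors mark the anterior neural plate, from which forebrain and eye arise, and En, Gbx, Pax2, Pax5 and Irx factors mark the boundary of midbrain and hindbrain and the hindbrain behind it. Six4 and Dlx3 factors mark the strip around the neural plate that forms the sensory placodes. Meis and Pbx proteins are cofactors that bind DNA together with other homeodomain proteins in many tissues, and Zic proteins act mainly in the dorsal neural plate. Genes were grouped by these domains into forebrain and eye (52 regions, 28 genes), midbrain-hindbrain (43 regions, 20 genes), placode and neural plate border (34 regions, 17 genes), zic (14 regions, 7 genes) and general cofactors (12 regions, 9 genes). A remainder of 36 regions at 18 genes held ventral neural, sclerotomal and other members, most of them of the nkx family. Expression in these tissues was not measured, and the groups stand on the known roles of the genes.

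Most of the members differed by less than 1.5-fold between the 2 embryos. Of the 191 regions, 97 lay below 0, 93 above 0 and 1 at 0, and the median log2 ratio was −0.01, against 0 for all regions. The 17484 regions with a gene had a median of 0.08, with 6910 below 0 and 10358 above 0, so the members lay lower than these. No member was at least 2-fold lower in the mutant library, against 4.03% of all regions, and 1 was at least 2-fold higher, a region inside irx1a, against 3.78%. By the 1.5-fold rule, 12 members (6.28%) were lower, against 12.5% of all regions, and 10 (5.24%) were higher, against 11.4%. In either direction 11.5% of members passed this rule, against 23.8% of all regions. All members are assigned to a gene, and the shares over all regions with a gene were 5.94% lower, 11.1% higher and 17.0% in either direction. The share of lower members was thus close to that of regions with a gene. At least 2-fold different in either direction were 4.94% of regions with a gene. The counting interval lay wholly below 0 for 30 members and wholly above 0 for 28. It did so for 6441 and 7179 of all 35854 regions, and for 2092 and 4420 of the 17484 with a gene. Every member passed the minimum mean of 20, and the lowest value in either library was 21.

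Level matters for these counts, since low regions vary more, and the members had a median level of 140.5 normalised reads against 94 for all regions. Within 5 classes of level the members passed the 1.5-fold rule less often than all regions in all 5, where all regions include those without a gene. At a mean of 20 to 50, 7 of 21 members (33.3%) passed, against 46.3% of all regions of that level. From 50 to 100 it was 9 of 55 (16.4%) against 25.9%. From 100 to 200, 4 of 57 (7.02%) passed, against 15.4%, and from 200 to 500, 2 of 43 (4.65%), against 7.14%. None of the 15 members above 500 passed, where 5.41% of all regions did. The middle 50% of log2 ratios was likewise narrower among members in each class, for example 0.34 against 0.54 from 100 to 200. Other genes that pattern the same tissues, a list given below, passed this rule at 5.77% of their regions, without matching for level. Neural marker genes did so at 11.1%, so a low share is not particular to the members. At paraxial mesoderm, epidermal and endothelial marker genes it was 25.8%, 41.7% and 25.0%. The paraxial mesoderm and epidermal lists share dlc and tfap2a, respectively, with the list of other patterning genes. These shares are descriptions of 2 libraries, and whether they differ was not tested.

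**Figure D1:**
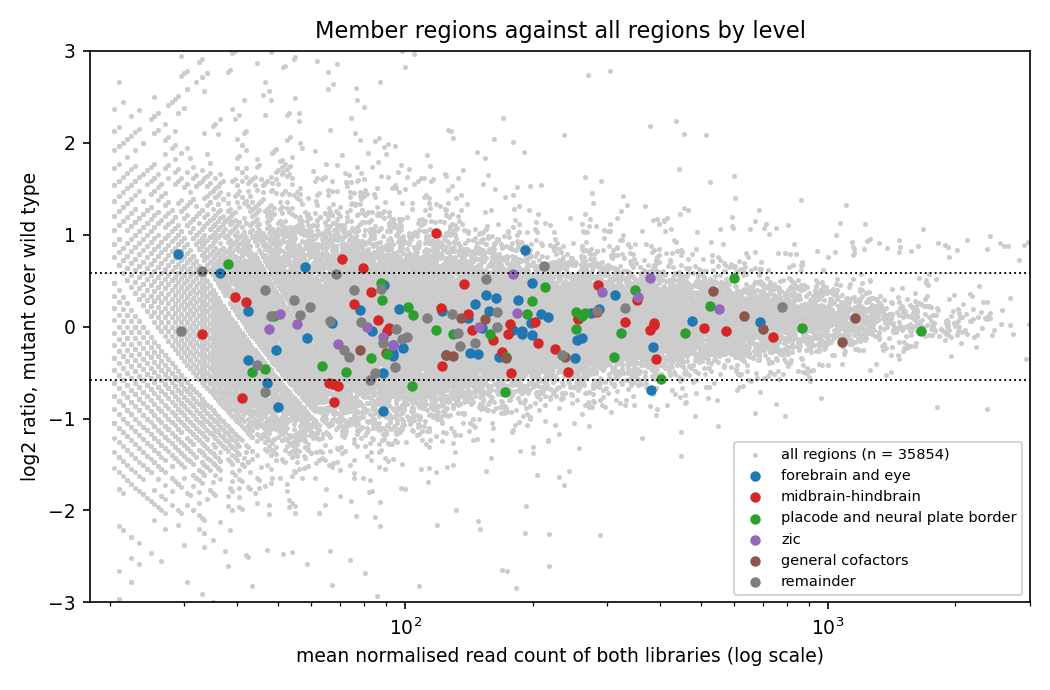
Log2 ratio of mutant over wild type (y axis) against the mean normalised read count of both libraries (x axis, log scale) for all 35854 regions (grey) and the 191 members, coloured by gene group; dotted lines mark 1.5-fold, and 258 regions lie outside the axes, none of them a member. Members spread around 0 at every level, with 12 below the lower and 10 on or above the upper dotted line.

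Many member genes had several regions. There were 1.93 regions per gene against 1.198 over all assigned genes, 41 of the 99 genes had 1 region, and 58 of the 99 genes (58.6%) had 2 or more, against 17.3% of all assigned genes. Of the 191, 87 (45.5%) lay no more than 1 kb from the gene's transcription start site (TSS), against 74.6% of all assigned regions, and 18 genes had no region there. Other genes that pattern the same tissues, listed below, also had 1.93 regions per gene, with 51.9% of regions within 1 kb, and the neural and paraxial mesoderm marker genes had 2.00 and 2.21 per gene, so these traits are not particular to the members. The 87 regions within 1 kb had a median log2 ratio of 0.05, against 0.11 for all such regions, with 2 at least 1.5-fold lower (3.87% of all such regions) and 4 at least 1.5-fold higher (10.5%). The 104 farther regions had a median of −0.04, against 0.00 for all assigned regions beyond 1 kb. They held 10 of the 12 lower members, or 9.62% of the 104, against 12.0% of all such regions. Of the 10 higher members they held 6, or 5.77%, against 12.7%. Among the 58 genes with several regions, 31 had regions on both sides of 0, 14 had all below 0 and 12 had all above 0. The difference between the highest and lowest log2 ratio within such a gene ranged from 0.02 to 1.28, with a median of 0.36.

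**Figure D2:**
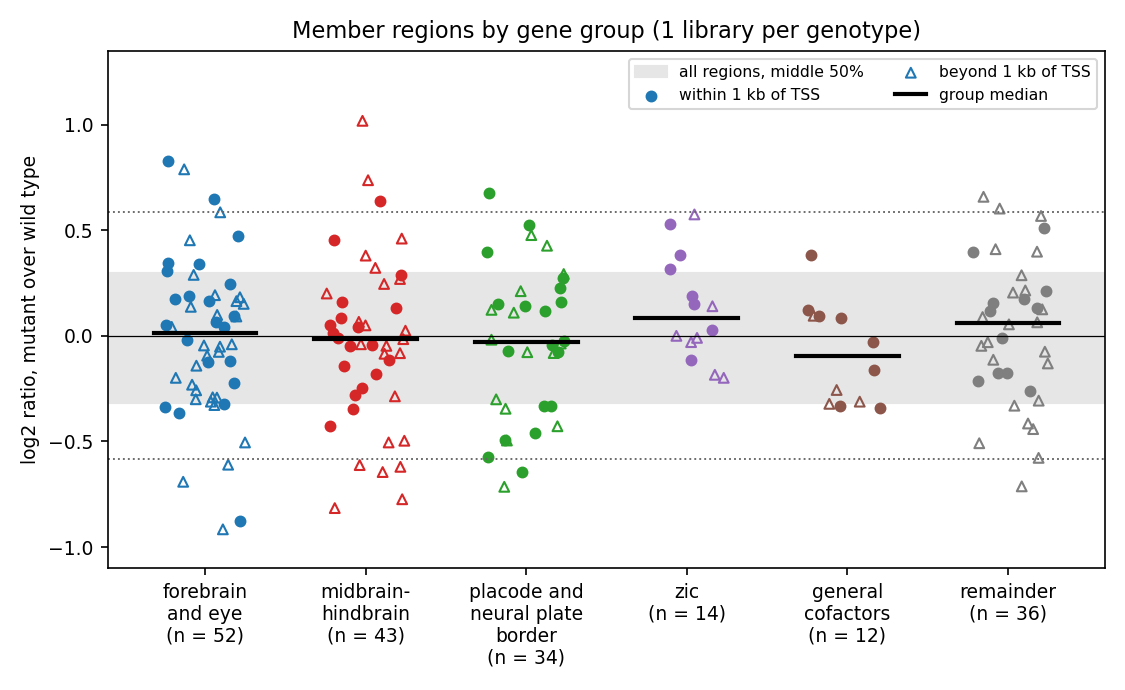
Log2 ratio of each member region (y axis) by gene group (x axis); filled circles lie within 1 kb of the TSS, open triangles farther out, black bars are group medians, dotted lines mark 1.5-fold and the grey band holds the middle 50% of all regions. Group medians lie between −0.10 for the cofactors and 0.08 for zic, beside 0.08 for all regions with a gene.

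Forebrain and eye genes had a median log2 ratio of 0.01, with 26 regions on each side of 0. By the 1.5-fold rule 4 (7.69%) were lower and 4 (7.69%) higher. The shares were 12.5% and 11.4% over all regions, and 5.94% and 11.1% over regions with a gene. The most accessible regions of the group differed little. At the start site of emx2, a homeobox gene of the dorsal telencephalon, the mutant library held 701 and the wild type 677 normalised reads (0.05, −0.10 to 0.20). The region 234 bp from the start of dlx1a, a gene of GABAergic forebrain neurons, held 486 and 465 (0.06, −0.12 to 0.25).

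Regions of otx2 (ENSDARG00000011235), which is required for forebrain and midbrain, were all higher in the mutant library. Its upstream region, 246 bp from the TSS on chromosome 17 at 44135860 to 44136541 (GRCz10), held 246 normalised reads in the mutant library against 138 (0.83, 0.53 to 1.14). Inside the gene, 203 against 166 gave 0.29 (−0.01 to 0.59), and 83 against 73 gave 0.18 (−0.29 to 0.65). The rest of the family lay on both sides of 0. The start site of otx5 held 201 against 195 (0.04, −0.25 to 0.33) and a region inside otx1a 145 against 136 (0.09, −0.26 to 0.44). The start site regions of otx1a and otx1b, which act in the same territory, were lower, with 222 against 281 (−0.34, −0.60 to −0.08) and 356 against 416 (−0.22, −0.43 to −0.02). The gene listed as otx1a carries the symbol otx2a in the gene name table. Of the head genes that lie higher, lhx5, a LIM-homeobox gene of the forebrain, held 71 against 45 at its start site (0.65, 0.11 to 1.23). The region of lhx8a, known in basal forebrain neurons, 1007 bp from the TSS, held 44 against 29 (0.58), an exact 1.5-fold on this scale.

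On the low side, both regions of nkx2.4a (ENSDARG00000075107), an Nkx2.1-related gene of the ventral forebrain and thyroid, lay lowest of all members. The region at its start site on chromosome 17, 42108145 to 42108430, held 35 against 65 (−0.87, −1.53 to −0.26), and the region 1234 bp inside the gene, 42106938 to 42107379, held 61 against 116 (−0.92, −1.42 to −0.48). Its paralogue nkx2.4b did not go the same way, with 159 against 134 at the start site (0.25) and a range over its 4 regions from −0.09 to 0.45. At pax6b (ENSDARG00000045936), a paired-box gene of the eye, forebrain and pancreas, a region 4357 bp inside the gene on chromosome 7, 15623589 to 15623944, held 292 against 472 (−0.69, −0.91 to −0.48). Its other regions lay close to 0, with 242 against 267 upstream (−0.14) and 129 against 115 inside the gene (0.16). The paralogue pax6a had 3 of 4 regions below 0, from −0.31 to 0.14. A region upstream of vsx1, a retinal bipolar cell gene, held 37 against 57 (−0.61), while the region at its start site held 181 against 146 (0.31).

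Several eye field genes showed small differences only. The 3 regions of rx3, which is needed for the eye field, lay between 0.04 and 0.19, and its start site held 265 against 248 normalised reads. At six3a, a repressor of Wnt signalling in the anterior neural plate, the start site held 251 against 274 (−0.13), and at six3b 306 against 268 (0.19). The related six7 was higher, with 351 against 277 (0.34, 0.11 to 0.58). The 3 regions of lhx9 all lay below 0, from −0.32 to −0.20. For lhx2b, a LIM-homeobox gene of the eye, both regions lay above 0, with 232 against 167 at the one nearer the TSS (0.47, 0.18 to 0.77).

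Dlx genes of the forebrain lay side by side on chromosome 9. All 3 regions of dlx2a and 1 of 2 of dlx1a were lower in the mutant library, with 968 normalised reads against 1076 in sum over the 5 regions. The region with the largest difference, upstream of dlx2a at 3432280 to 3432688, held 73 against 104 (−0.50, −0.96 to −0.06), and the 4 other regions lay between −0.33 and 0.06.

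In the midbrain-hindbrain group, 23 regions lay below and 20 above 0, and the median was −0.02. By the 1.5-fold rule 5 regions (11.6%) were lower and 3 (6.98%) higher. The shares were 12.5% and 11.4% over all regions, and 5.94% and 11.1% over regions with a gene. The engrailed genes, homeobox repressors of the midbrain-hindbrain boundary, lay mostly on the low side. Of their 9 regions 7 were below 0, with a median of −0.25, where 6910 of 17484 regions with a gene were below 0. The start site of en1b held 344 against 438 (−0.35, −0.56 to −0.14), that of en1a 104 against 140 (−0.43, −0.81 to −0.05) and that of en2b 207 against 246 (−0.25, −0.53 to 0.02). The start site of en2a (ENSDARG00000026599), the most accessible of them, was level in both embryos, with 506 against 510 (−0.01, −0.19 to 0.17). Farther out, a region 1853 bp upstream of en2a held 30 against 52 (−0.77), one 4374 bp upstream 94 against 72 (0.38, −0.08 to 0.83), and one inside the gene 142 against 146 (−0.04). At en2b the upstream region 3146 bp out held 52 against 80 (−0.61, −1.15 to −0.09), and one beyond the gene 44 against 35 (0.32).

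Other genes of the same boundary went in both directions. Both regions of pax5, a paired-box gene that acts with Pax2 there, were lower, with 201 against 284 at the one 4355 bp inside the gene (−0.50, −0.76 to −0.23) and 153 against 186 near the start (−0.28, −0.60 to 0.04). The start site of pax2b was higher, with 388 against 318 (0.29, 0.07 to 0.50), and its 3 other regions lay between −0.29 and 0.20. At gbx1 and gbx2, homeobox genes of the anterior hindbrain, the start sites held 713 against 773 (−0.12) and 153 against 169 (−0.14). The paired-box genes of dorsal midbrain and neural crest differed in sign, with 330 against 241 at pax7a (0.45, 0.21 to 0.70) and 193 against 219 at pax7b (−0.18). The 2 regions of barhl1a lay at 0.13 and 0.27.

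Iroquois genes, which lie in clusters and pattern the midbrain and hindbrain, supplied the only member past 2-fold, a call that ended with a pseudocount of 10 (log2 ratio 0.94) and with scaling by summed values (0.99). In the cluster of irx2a and irx1a on chromosome 16 all 5 regions were higher in the mutant library, with 1009 normalised reads against 821 in sum. The region inside irx1a (ENSDARG00000101831), 2185 bp from the TSS at 739609 to 740085, held 159 against 78 (1.02, 0.63 to 1.43). It was followed by the region inside irx2a (ENSDARG00000001785) at 541238 to 541516, with 89 against 53 (0.74, 0.26 to 1.28), and by one upstream of irx1a with 160 against 116 (0.46, 0.10 to 0.81). The start sites of both genes hardly differed, with 337 against 325 (0.05) and 264 against 249 (0.08). The paralogue irx1b had no such difference, its 3 regions lying between −0.05 and 0.05.

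A second iroquois cluster, irx6a, irx5a and irx3a on chromosome 7, had 4 of 6 regions below 0. Both regions of irx6a were lower, with 49 against 87 upstream at 35246255 to 35246487 (−0.82, −1.38 to −0.31) and 53 against 82 inside the gene (−0.62, −1.15 to −0.10). A region upstream of irx3a held 147 against 209 (−0.50, −0.83 to −0.20). Again the start sites were level, with 564 against 584 normalised reads at irx5a (−0.05) and 390 against 386 at irx3a (0.01). In the paralogous cluster on chromosome 25, irx5b had a higher start site, 97 against 62 (0.64, 0.17 to 1.12), and a lower region 3100 bp inside the gene, 54 against 85 (−0.64, −1.18 to −0.14), which gave this gene the widest spread among its regions. Its neighbour irx3b held 374 against 385 (−0.04). The single-gene locus irx7, known in hindbrain patterning, had 300 against 268 at the start site (0.16).

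**Figure D3:**
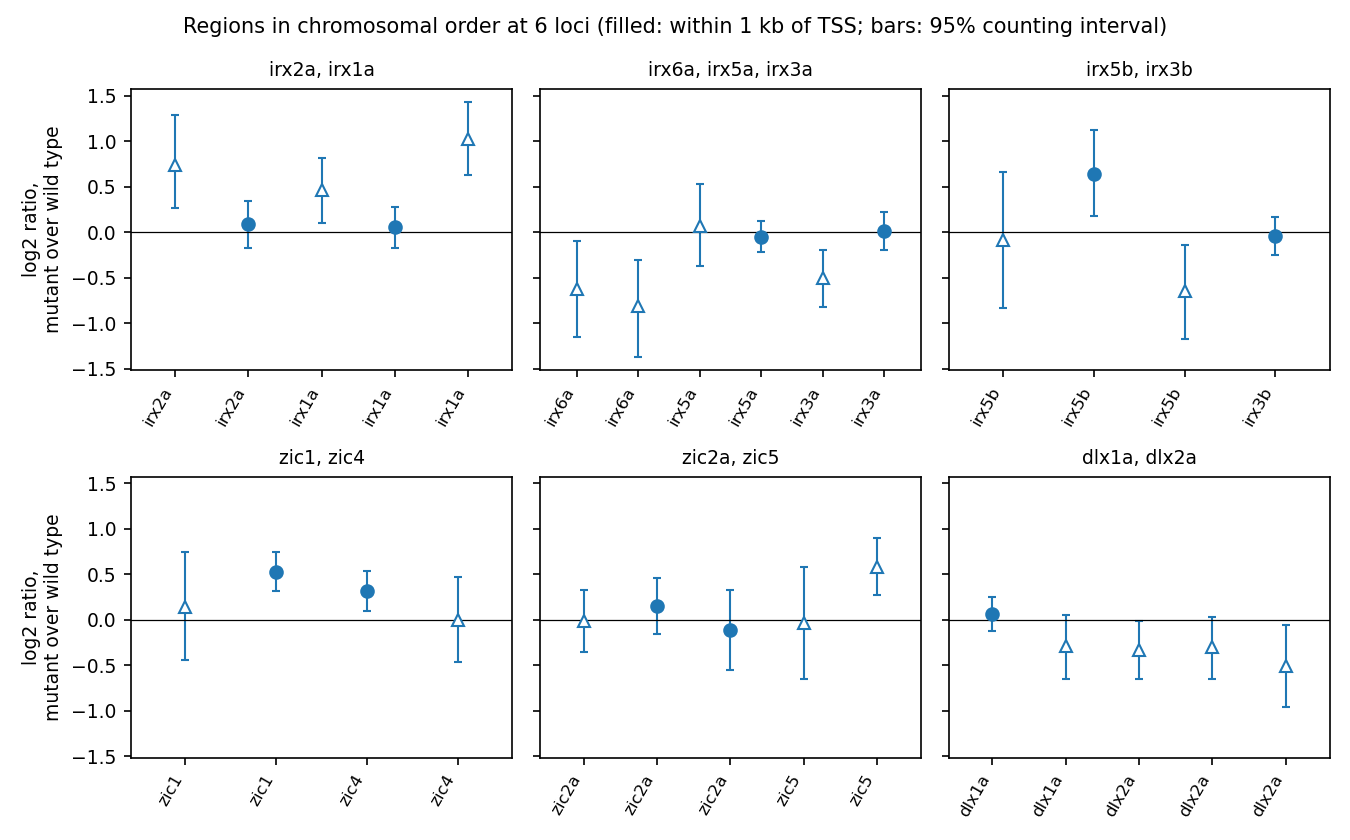
Log2 ratio of mutant over wild type (y axis) for each region in chromosomal order (x axis, named by assigned gene, not to scale) at 6 loci holding several members; filled circles lie within 1 kb of the TSS, open triangles farther out, and bars are 95% counting intervals. All 5 irx2a and irx1a regions lie above 0, 4 of 5 dlx1a and dlx2a regions lie below 0, and the clusters around irx5a and irx5b span both sides.

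Placode and border genes had a median of −0.03, with 19 regions below and 15 above 0. By the 1.5-fold rule 2 (5.88%) were lower, 1 of them inside six4a, and 1 (2.94%) was higher. The shares were 12.5% and 11.4% over all regions, and 5.94% and 11.1% over regions with a gene. Both regions of six4a (ENSDARG00000004695), a homeobox gene of the preplacodal strip and of developing muscle, were lower in the mutant library. Inside the gene on chromosome 13, the region nearest the TSS, 31515976 to 31516783, held 324 against 482 (−0.57, −0.78 to −0.37), and the one at 31514021 to 31514412 held 130 against 214 (−0.71, −1.05 to −0.40).

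The paralogue six4b on chromosome 20 also had its 2 regions below 0, with 153 against 193 (−0.33, −0.65 to −0.02) and 81 against 100 (−0.30, −0.76 to 0.13). Because Six4 factors also act in somites, the state of somite genes in these libraries is given beside this value. Of 31 regions at 14 of 16 listed paraxial mesoderm genes, 25 lay below 0, with 4759 normalised reads against 5799 in sum. Over all regions with a gene, 6910 of 17484 lay below 0. The part of somite genes in the result was not tested.

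Both regions of pax3b, a paired-box gene of the neural plate border, lay on the high side. The start site of pax3b (ENSDARG00000028348) on chromosome 15, 42250476 to 42251482, held 709 against 492 (0.53, 0.36 to 0.70), and its second region 97 against 79 (0.29). The 4 regions of pax3a, which acts in neural crest and dorsal neural tube, lay between −0.07 and 0.22, with 568 against 486 at its start site. Msx genes, border repressors downstream of BMP, were level where they were most accessible. The msx1b start site, the most accessible region of all members, held 1632 against 1681 (−0.04, −0.14 to 0.06), and the upstream region of msx1a 864 against 875 (−0.02, −0.16 to 0.12). The 2 regions of msx3 were lower, with 275 against 347 (−0.33, −0.57 to −0.11) and 36 against 51 (−0.49).

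Further placode genes varied in sign as well. At dlx3b, which is required for the otic and olfactory placodes, the upstream region held 245 against 182 (0.43, 0.15 to 0.71) and the start site 218 against 180 (0.27), while 2 regions farther downstream lay at −0.08 and −0.04. Its neighbour dlx4b held 280 against 252 (0.15), and dlx5a 251 against 255 (−0.02). A region of pitx3, a gene of the lens, held 102 against 73 (0.48, 0.04 to 0.93), and the start site of six5 398 against 302 (0.40, 0.18 to 0.62). Of the 3 regions of six2a, 2 lay below 0, at −0.46 and −0.35, and 1 at 0.12.

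Zic genes had the highest median of the groups, 0.08, which was no higher than the 0.08 of all regions with a gene. None of their 14 regions passed the 1.5-fold rule in either direction. Near the start sites, 6 of 7 regions were above 0, with a median of 0.19, beside 0.11 for all regions within 1 kb of a TSS. Zic genes lie in pairs, and both start sites of the pair zic1 and zic4 were higher in the mutant library. On chromosome 24, zic1 (ENSDARG00000015567) at 4941648 to 4942315 held 449 against 311 (0.53, 0.32 to 0.74) and zic4 (ENSDARG00000031307) at 4945933 to 4946787 held 394 against 316 (0.32, 0.10 to 0.53). On chromosome 14, zic6 held 331 against 254 (0.38, 0.14 to 0.62). At the pair of zic2a and zic5, an upstream region of zic5 on chromosome 9, 31507165 to 31507882, held 215 against 144 (0.57, 0.27 to 0.90), whereas the zic2a start site held 193 against 174 (0.15) and its 2 other regions lay at −0.11 and −0.01. Regions inside zic4, zic5, zic6 and zic2b lay between −0.20 and 0.00.

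General cofactors likewise had no region past 1.5-fold, and 7 of their 12 regions lay below 0. Their start sites were among the most accessible members. The meis1b region 200 bp from the TSS held 1196 against 1122 (0.09, −0.03 to 0.21), pbx3b upstream 1017 against 1139 (−0.16, −0.29 to −0.04), pbx1b 695 against 709 (−0.03) and pbx4, the maternally supplied Pbx of the zebrafish embryo, 660 against 607 (0.12). The region of pbx1a lay highest, with 606 against 464 (0.38, 0.21 to 0.56). Meis2a and meis3, cofactors of hindbrain patterning, were lower at their start sites, with 211 against 266 (−0.33, −0.60 to −0.07) and 153 against 194 (−0.34, −0.66 to −0.03). Upstream regions of the same genes held 111 against 138 (−0.31) and 140 against 131 (0.10) at meis2a and 115 against 144 (−0.32) at meis3. Over all 7 meis regions the median was −0.31, and over the 5 pbx regions 0.08.

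The remainder had a median of 0.06, with 17 regions below and 19 above 0. The most accessible was the start site of nkx6.2, a gene of ventral neural progenitors, with 836 against 721 (0.21, 0.07 to 0.36). It was followed by an upstream region of pax10 with 354 against 307 (0.20) and the start site of lhx4 with 301 against 267 (0.17). At pax1b, a paired-box gene of sclerotome and pharyngeal pouches, a region 2333 bp inside the gene on chromosome 20, 48867767 to 48868318, held 261 against 165 (0.66, 0.37 to 0.95), while its start site held 174 against 156 (0.16). Its paralogue pax1a had both regions below 0, with 65 against 82 (−0.33) and 65 against 78 (−0.26). Of the 4 regions of nkx2.9, a Hedgehog-responsive gene of the ventral neural tube, 2 upstream were lower, with 35 against 58 (−0.71, −1.38 to −0.10) and 70 against 100 (−0.51, −0.98 to −0.06), and 2 were higher, at 0.40 and 0.22. At nkx2.2b, another ventral neural gene, 3 of 4 regions lay below 0, the lowest with 66 against 99 (−0.58, −1.06 to −0.11), followed by 80 against 109 (−0.44, −0.89 to −0.02). The sclerotome gene nkx3.2 had 40 against 26 upstream (0.60, −0.12 to 1.38) and 137 against 155 at the start site (−0.18). The upstream region of nkx3.3 held 82 against 55 (0.57, 0.06 to 1.08). Both regions of nkx1.2lb were higher, with 183 against 128 (0.51, 0.19 to 0.86) and 100 against 75 (0.41). The 4 regions of nkx2.3, a pharyngeal gene, lay between −0.42 and 0.29.

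**Figure D4:**
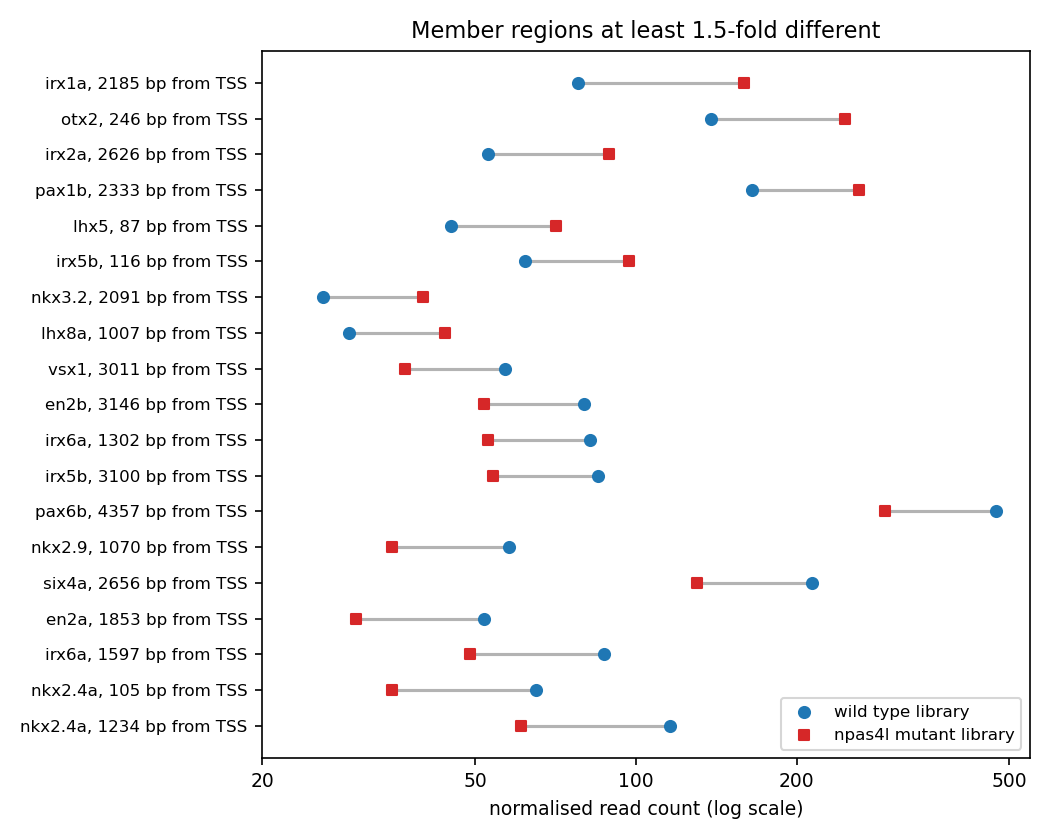
Normalised read counts (x axis, log scale) of 19 of the 22 member regions at least 1.5-fold different (3 that are not reported singly are left out), 1 row per region, in the wild type library (blue circles) and the npas4l mutant library (red squares). The 8 upper rows are higher and the 11 lower rows lower in the mutant library, and the pair of nkx2.4a regions lies at the bottom, with 61 against 116 and 35 against 65.

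**Figure D5:**
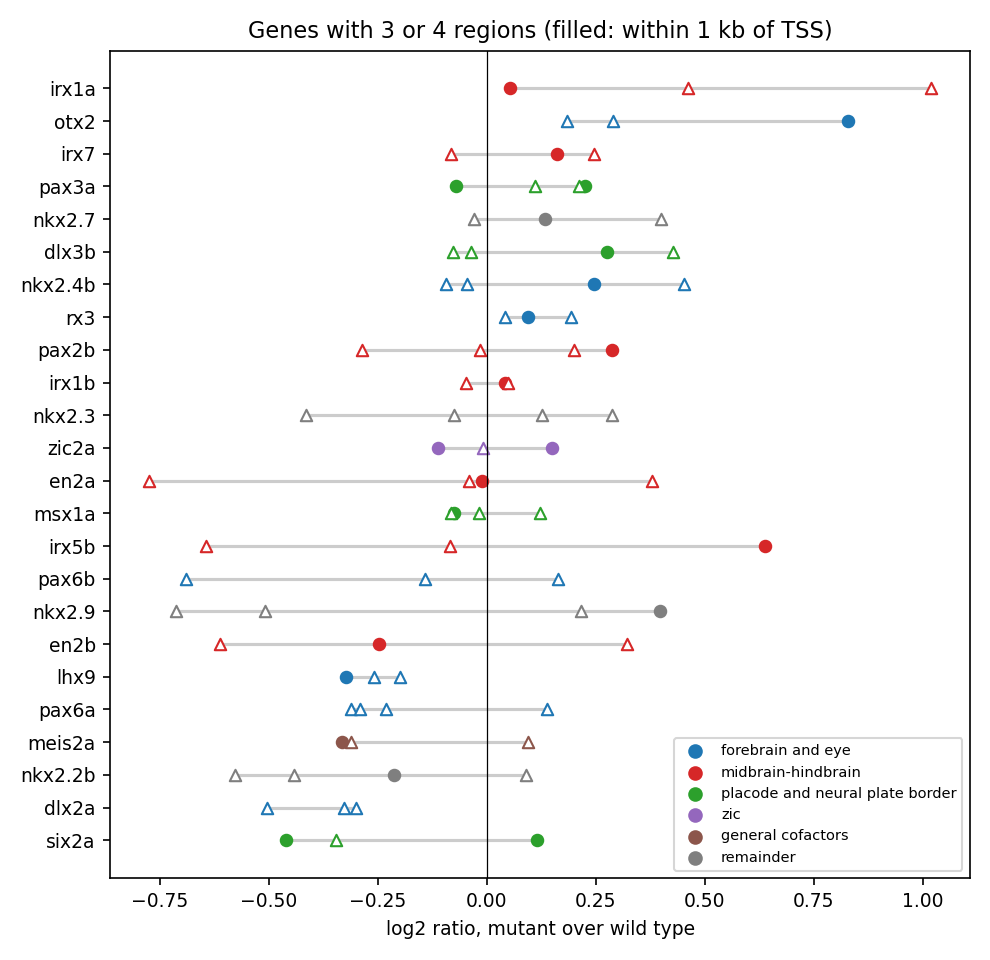
Log2 ratio (x axis) of every region of the 24 genes with 3 or 4 regions, 1 row per gene ordered by median, filled circles within 1 kb of the TSS, open triangles farther out, colours for gene groups. Regions of irx1a and otx2 all lie above 0 and those of lhx9 and dlx2a below 0, while irx5b spans −0.64 to 0.64.

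Regions that the deposited table gives to no gene were examined around the members as well, taking the nearest start site in the table up to 50 kb away. There were 227, of which 141 lay below 0 and 83 above, and their median of −0.13 equalled the −0.13 of all 11354 such regions. By the 1.5-fold rule 32 (14.1%) were lower and 14 (6.17%) higher, against 18.5% and 10.5% of all such regions. At least 2-fold lower were 5 and at least 2-fold higher 3, where 6.02% and 3.82% of all such regions were. In either direction it was 3.52% of the 227, against 9.84%. The region 26.2 kb from irx5a on chromosome 7, 35464684 to 35465273, had few reads in the mutant library, with 9 against 320 normalised reads (−5.00, −6.46 to −4.24). The reverse was seen 40.5 kb from lhx2b on chromosome 8, with 122 against 8 (3.77, 2.88 to 5.02). A region 49.8 kb from emx3 held 117 against 38 (1.60), one 13.6 kb from pax1b 58 against 21 (1.42, 0.74 to 2.26), and one 29.3 kb from meis1a 39 against 99 (−1.32, −1.90 to −0.77). The 3 remaining lay at pbx1a, dlx4b and otx2, all lower, with 19 against 49, 16 against 37 and 14 against 31.

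Around the cofactor genes the distant regions lay lowest, 22 of 27 below 0 with a median of −0.31. Of all 11354 unassigned regions within 50 kb of a start site, 6805 lay below 0, with a median of −0.13. At pbx4, 7 of 9 lay below 0, among them 218 against 370 at 40.3 kb (−0.76, −1.01 to −0.51), 141 against 234 at 42.8 kb (−0.73, −1.05 to −0.42) and 75 against 116 at 45.1 kb (−0.62, −1.09 to −0.21). At meis1b 6 of 7 did, and at meis3 all 3. Near the start sites 6 of 7 zic regions lay above 0, where 8199 of all 13036 regions within 1 kb of a TSS did. Of the 19 distant zic regions 14 lay below 0, with a median of −0.27. The other 5 lay above 0, among them 288 against 174 at 32.3 kb from zic1 (0.72, 0.45 to 1.01), 30 against 19 near zic5 (0.63, −0.21 to 1.57) and 42 against 28 near zic4 (0.57, −0.16 to 1.30). Of the 5 distant regions at pax3a, 4 lay below 0, with a median of −0.49, and the 1 at pax3b lay above 0, at 0.76. Which gene such a region serves was not tested.

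Other genes that pattern the same tissues were read from a list of 34, of which 27 had 52 regions. Of these, 0 passed the 2-fold rule in either direction, 3 were at least 1.5-fold lower and 0 higher, and 30 lay below 0, with a median of −0.07. For this list and the marker lists below, the background was 17692 of 35854 regions below 0, and 6910 of 17484 regions with a gene. The start site of fgf8a, the signal of the midbrain-hindbrain boundary, held 206 against 282 (−0.45, −0.72 to −0.19), and that of her5, a repressor at the same boundary, 169 against 127 (0.41, 0.08 to 0.76). The 3 regions past 1.5-fold lay at sp5l, a Wnt target (−0.90, −1.35 to −0.47), tfap2a, a factor of neural crest and epidermis (−0.92, −1.52 to −0.38), and the Notch ligand gene dlc (−0.69, −0.94 to −0.45). Regions of tfap2a are also counted in the epidermal list and those of dlc in the paraxial mesoderm list. All 3 regions of tbr1b, a gene of cortical and pallial neurons, lay above 0, from 0.25 to 0.39. Regions were found at 9 of 10 listed neural, 9 of 11 epidermal and 9 of 11 endothelial marker genes. Of 18 neural regions 13 lay below 0, with a median of −0.16, and in sum the mutant library held 6667 normalised reads and the wild type 6846. Of 12 epidermal regions 10 lay below 0, and the sums were 1533 against 1671. They were 1250 against 1648 without the most different region, at cldni, a claudin gene, with 283 against 23. The other cldni region held 50 against 117. Of 16 endothelial regions 12 lay below 0, with sums of 5120 against 5824. Among all regions with a mean of 20 to 50, 973 of 9085 were at least 2-fold lower. Of the 16 endothelial regions 3 (18.8%) were, against 4.03% of all regions, and all 3 had a mean in that class. They lay at kdrl, a VEGF receptor gene (18 against 52), lmo2, a blood and endothelial cofactor gene (16 against 51), and tek, an angiopoietin receptor gene (22 against 61). The other lmo2 regions held 94 against 106 at the start site and 53 against 94. Above 0 lay 4 regions, among them 1 at pecam1 (0.33, 0.05 to 0.61) and 1 at fli1a (0.22, 0.02 to 0.42). Without the most different region of each list, the sums were 6583 against 6711 for neural and 5104 against 5773 for endothelial genes. For paraxial mesoderm genes they were 4725 against 5791. The part of tissue makeup in the members' values was not tested.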

How the data were processed

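Accessible chromatin was measured by ATAC-seq in 2 libraries, each from a single embryo, and genotype was taken from the labels. Per the submitters' processing notes, the authors used DESeq, DESeq2 1.14.1, deepTools 2.5.4 and MACS2, besides Picard 2.9.0, STAR 2.5.3a and Trimmomatic 0.36; the genome is GRCz10, also written danRer10. The role of each tool, the merging of regions, removal of duplicates and any shift of read ends for the transposase are not given in the sources used here. In the table, the deposited library values are whole-number scores, which are read counts per region that the authors normalised and rounded, judging by the values. Whether region starts count from 0 or 1 is not stated in the table. The log2 ratio deposited by the authors equals log2 of mutant + 1 over wild type + 1 and was recomputed here. The deposited fraction of a region inside the gene body, per the file headers, and the distance to the transcription start site placed each region.

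Members were rows whose symbol met the family rule. The engrailed genes and msx1b, listed under older symbols, were matched through RefSeq synonyms (GRCz12tu table, used for names only), which added 10 regions. Members, groups and lists were chosen with earlier results of these data known. No region was removed by the minimum mean of 20, since the lowest mean was 20.5. Mutant values up to 4000 fell on whole reads times 1.06505 in 99.96% of cases (93.9% by chance). Mutant values were divided by this factor and wild type values by its reciprocal, which was assumed and not fitted. This gave 7853828 wild type and 7066666 mutant reads in regions, used only for exact Clopper-Pearson intervals of the split of reads. Such intervals hold counting error alone: PCR copies carry no molecular identifier and are not separate molecules. Genotypes were not tested, each having 1 library. Regions were counted by rules of size (at least 2-fold and at least 1.5-fold) beside the same shares over all regions. Named regions were, per group, the 4 lowest, the 4 highest and the 3 with the highest mean, all regions at least 2-fold different, regions near the start site at loci holding several members, and genes with the most regions, for which 10 genes tied at 4. The joining of genes into loci (start sites within 350 kb) and all other named regions were chosen after values were seen. Some members that the rule names are counted in the totals but not reported singly here. The promoter motif search was not run, as no sequence of the build was used here. The interval procedure was tested on simulated data. Figures used matplotlib 3.10.9, and calculations scipy 1.17.1, pandas 2.3.3 and numpy 2.4.6 under Python 3.11.15.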

Additional observations from a re-analysis of the deposited data

How the results depend on the processing

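Of the 191 single log2 ratios, every one stayed within its counting interval under each of the 4 other scalings (a pseudocount of 10, centring on the median of all regions, scaling by summed values, and removal of the trend with level), and no call of at least 1.5-fold changed sign. Centring changed nothing, since the median of all regions is 0. Summed values shifted the member median by −0.03 and trend removal by −0.01. Shifts this small could hardly leave the intervals, so this check says little about stability. The region inside irx1a was the only one past 2-fold, and the count of such higher members was 0 with a pseudocount of 10, with summed values, within 1 kb of the TSS and with 1 region per gene, 2 with name table symbols added and 4 with unassigned regions within 50 kb added. The count at least 2-fold lower became 5 with those unassigned regions. Members at least 1.5-fold lower went from 12 to 2 within 1 kb of the TSS, 4 with 1 region per gene and 44 with unassigned regions. Lower members also dropped out with a pseudocount of 10, among them the region upstream of vsx1. At a minimum mean of 50 the regions upstream of vsx1 and en2a were among those lost. Members at least 1.5-fold higher went from 10 to 5 with a pseudocount of 10, 6 at a minimum mean of 50, 4 within 1 kb, 5 with 1 region per gene and 24 with unassigned regions. Counts from those sets are not comparable as they stand, since the sets differ in size by construction (99 regions with 1 per gene, 87 within 1 kb, 418 with unassigned regions). The median over all members was −0.0500 with unassigned regions added. Group medians lay close to 0, and some changed sign between settings, the zic median from 0.08 to −0.03 with unassigned regions and the cofactor median from −0.10 to 0.03 within 1 kb. Leaving out members matched by an older symbol, chosen after seeing the data, left 181 regions, 10 at least 1.5-fold lower and 10 higher. Regions under 50 normalised reads have wide intervals, so differences there are the least certain. No replicate could be left out. No paired analysis was possible because each genotype has 1 library.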
